A study of Mus musculus with 3 samples.

Results

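CC chemokines are small secreted proteins, named for a pair of neighbouring cysteines, that attract leukocytes through G protein-coupled receptors. The 7 genes described here, Ccl2, Ccl3, Ccl4, Ccl6, Ccl7, Ccl9 and Ccl12, were taken by gene symbol from the 27998 genes of a single-cell RNA count matrix, and each symbol matched 1 gene. The cells were YFP (+) cells sorted by FACS, with size selection and doublet exclusion, from lumbar cord of mice of strain C57BL/6, which were young adults and Cx3cr1-creER-yfp/+ heterozygous. All groups carried the creER-yfp allele, which labels cells that use the Cx3cr1 promoter, and all sorted cells were taken up in serum-free medium with TGF-β2, IL34 and cholesterol. The methods give tamoxifen, injected for recombination, ahead of all experiments. The 3 samples were naive animals and animals 24 h and 48 h after sciatic nerve transection, each 1 library of 3 pooled animals. The libraries were joined in the matrix and can be told apart by a suffix of the cell barcode (1, 2 or 3), but no source used here says which suffix is naive, 24 h or 48 h. The libraries are therefore called library 1, 2 and 3, of unknown time point. With 1 library per suffix no p-value was computed. All intervals below are 95% intervals of counting error alone and hold no spread between animals.

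Microglia are the resident macrophages of the central nervous system and a known source of chemokines after nerve injury. Ccl2, Ccl7 and Ccl12 are monocyte chemoattractant proteins, ligands of the receptor Ccr2 that draws monocytes out of the blood. Ccl3 and Ccl4 are the macrophage inflammatory proteins MIP-1 alpha and MIP-1 beta, which attract macrophages and T cells, and Ccl3 binds the receptor Ccr1. Ccl6 and Ccl9 are mouse ligands of Ccr1 that myeloid cells make without stimulation.

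Library 1 held 609 cells, library 2 held 3591 and library 3 held 3322, with medians of 2218, 5952 and 5742 UMIs (unique molecular identifiers, each standing for 1 captured transcript). Every cell of the 3 libraries had at least 2 of 10 microglia markers. The summed level of those markers was 22976 to 28093 CPM (UMIs per 1000000 UMIs). The 7 monocyte markers summed to 3.32 to 8.93 CPM, and at most 1 cell of a library had 2 of them. Perivascular macrophage markers summed to 0.745 to 2.28 CPM, neutrophil markers to 0 to 5.01 CPM and T and NK cell markers to 0.253 to 14.3 CPM. At least 2 neutrophil markers were found in 0, 12 and 11 cells of libraries 1, 2 and 3. At least 2 T and NK cell markers were found in 0, 6 and 0 cells. Of the B cell, erythroid, endothelial, astrocyte, oligodendrocyte and neuron markers, at most 0.473% of the cells of a library had 2 of a kind. Cd163, Lyve1, Ly6g, Mmp8 and Cd3e were at 0 in every library. No large group of other cells was thus present in which the background of free RNA could be measured. A total of 25 barcodes occurred in more than 1 library, 1 of them in 3 libraries, which concerned 51 cells. Leaving those cells out changed no count of members below.

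All 7 genes lie on chromosome 11 (GENCODE M21 on GRCm38), in 2 groups 1469.5 kb apart. The first holds Ccl2 (82035571 to 82037453), Ccl7 (82045712 to 82047525) and Ccl12 (82101845 to 82103400), all on the plus strand. The second holds Ccl9 (83572919 to 83578636), Ccl6 (83587882 to 83593087) and Ccl3 (83647844 to 83649355) on the minus strand and Ccl4 (83662584 to 83664683) on the plus strand. Ccl3 and Ccl4 are divergent neighbours 13.2 kb apart. The second group thus joins genes that differed strongly between libraries, Ccl3 and Ccl4, with the pair that did not pass 2-fold, Ccl6 and Ccl9.

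Promoters of 4 members, Ccl3, Ccl6, Ccl9 and Ccl12, were found in RefSeq on GRCm38.p6, and the 250 bases before each transcript start are shown because 2 of these genes were high in library 3 and 2 were not. Each is written 5′ to 3′ on the strand of its gene. Capitals mark matches on either strand to 3 motifs. The AP-1 motif searched was TGANTCA. The TATA box was taken as TATAAA, and the third motif was the NF-kB consensus.
Ccl12, chr11:82101595-82101844, plus strand: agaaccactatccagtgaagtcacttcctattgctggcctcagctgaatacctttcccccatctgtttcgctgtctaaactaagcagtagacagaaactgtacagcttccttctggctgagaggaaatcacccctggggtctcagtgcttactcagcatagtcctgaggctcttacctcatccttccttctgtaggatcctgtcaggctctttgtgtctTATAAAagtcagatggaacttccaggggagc
Ccl3, chr11:83649379-83649628, minus strand: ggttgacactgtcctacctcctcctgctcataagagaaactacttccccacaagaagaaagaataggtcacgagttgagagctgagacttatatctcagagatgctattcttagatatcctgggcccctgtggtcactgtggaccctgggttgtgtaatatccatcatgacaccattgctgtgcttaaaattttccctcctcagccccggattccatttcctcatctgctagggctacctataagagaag
Ccl6, chr11:83593088-83593337, minus strand: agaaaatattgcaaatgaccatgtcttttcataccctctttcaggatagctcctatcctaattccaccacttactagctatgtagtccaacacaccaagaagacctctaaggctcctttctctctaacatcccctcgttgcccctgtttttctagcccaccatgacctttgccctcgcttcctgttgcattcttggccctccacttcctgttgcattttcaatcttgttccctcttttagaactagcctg
Ccl9, chr11:83578637-83578886, minus strand: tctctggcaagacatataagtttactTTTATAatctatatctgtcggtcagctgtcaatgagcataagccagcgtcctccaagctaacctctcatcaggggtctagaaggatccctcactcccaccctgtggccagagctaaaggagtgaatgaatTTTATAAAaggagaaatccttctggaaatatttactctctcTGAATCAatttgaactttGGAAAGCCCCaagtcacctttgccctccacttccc

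Ccl12 held a TATA box match 31 to 26 bases before its start. Ccl9 held an NF-kB consensus match 35 to 26 bases and an AP-1 match 53 to 47 bases before its start, besides 3 TATA box matches over both strands, 2 of which overlap. In Ccl3 and Ccl6 these letters do not occur in the 250 bases. Of 32851 promoters of the same length, 7.25% held the NF-kB consensus, 6.75% AP-1 and 12.4% the TATA box. A match is a description of the letters alone.

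To compare the libraries, UMIs were summed over all cells of a library and scaled to CPM. A gene was called higher or lower where the ratio of CPM, with 1 CPM added to both, passed 2-fold. All 7 members passed the filter of a mean of at least 10 CPM over the 3 libraries, as did 8130 genes in all, and Ccl7 passed it through its level in library 3. The calls of Ccl7 as higher in library 3 are thus not independent of the filter. From library 1 to library 2, 3 members were higher (Ccl2, Ccl7 and Ccl12) and 0 were lower, where 4.55% of all tested genes were higher and 3.7% lower. From library 1 to library 3, 5 members were higher (Ccl2, Ccl3, Ccl4, Ccl7 and Ccl12) and 0 lower, against 3.62% and 5.01% of all genes. From library 2 to library 3, the same 5 members were higher and 0 lower, against 1.32% and 1.92% of all genes. Ccl6 and Ccl9 passed 2-fold in no comparison. The members were chosen with earlier results of these data known. The shares of all genes are thus given as a background, and no excess of members is read from them. The median log2 ratio of the members was -0.23, 3.23 and 2.17 in the 3 comparisons, beside -0.09, -0.09 and -0.02 over all tested genes. TMM size factors raised the log2 ratios by 0.18, 0.22 and 0.04 before 1 CPM was added and changed none of these counts.

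**Figure D1:**
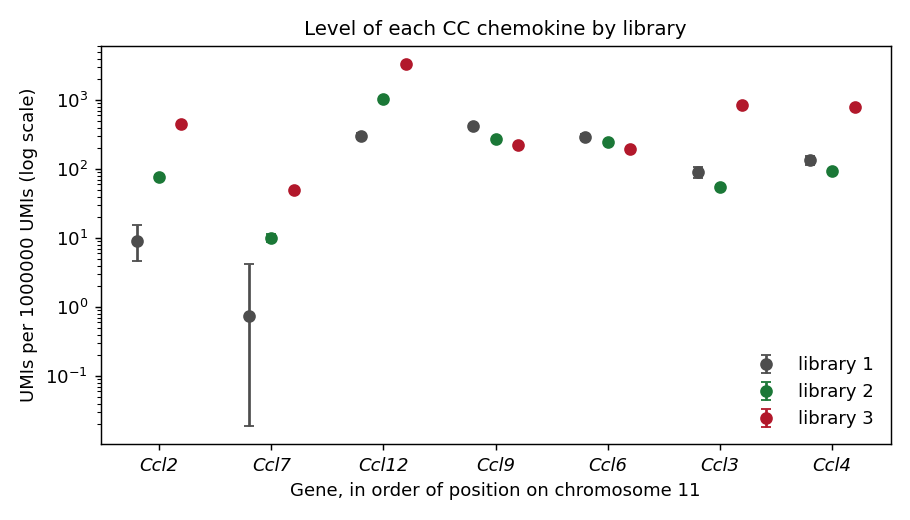
Level of each CC chemokine in UMIs per 1000000 UMIs (log scale) in library 1, 2 and 3, genes in order of position on chromosome 11; bars are exact 95% Poisson intervals of counting error. Ccl2, Ccl7 and Ccl12 were in the order library 1, 2, 3 from low to high, Ccl3 and Ccl4 were high in library 3 alone, and Ccl6 and Ccl9 differed by less than 2-fold.

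Among the ligands of Ccr2, Ccl12 was at 302 CPM (interval 273 to 332), 1029 CPM (1016 to 1042) and 3304 CPM (3279 to 3330) in libraries 1, 2 and 3. Ccl2, the ligand best known for recruiting monocytes, was at 8.93 CPM (4.62 to 15.6), 77.3 (73.8 to 80.9) and 446 (437 to 455). Ccl7 was at 0.745 CPM in library 1, which was 1 UMI, and then at 10.1 CPM (8.89 to 11.5) and 49.0 CPM (45.9 to 52.2). All 3 genes were thus lowest in library 1 and highest in library 3, with intervals that did not overlap. Between libraries 3 and 2 the ratio of CPM was 5.77 for Ccl2 (5.49 to 6.07), 4.84 for Ccl7 (4.20 to 5.59) and 3.21 for Ccl12 (3.17 to 3.26). Between libraries 3 and 1 the ratio was 49.9 for Ccl2 (28.6 to 96.7) and 10.96 for Ccl12 (9.94 to 12.1). By the ratio with 1 CPM added, Ccl2 ranked 9 of 8130 genes in that comparison. The ratio of Ccl7 between libraries 3 and 1 was 65.8, with an interval of 11.8 to 2600.1 since it rests on the 1 UMI of library 1, and its log2 ratio went from 4.84 to 3.23 with 5 CPM added in place of 1. With the 1% of cells of each library that held most UMIs of the gene left out, a setting added after the data were seen, the log2 ratio of library 3 to library 1 went from 5.49 to 6.63 for Ccl2 and from 3.45 to 4.43 for Ccl12. That of library 2 to library 1 went from 2.98 to 3.89 for Ccl2 and from 1.77 to 2.71 for Ccl12. Ccl2 had 12 UMIs in 11 cells of library 1, so this setting left few of its UMIs there. The setting raises the ratio of any gene whose UMIs lie in few cells of library 1. The rises are thus not read as larger differences.

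The MIP-1 genes followed another order. In libraries 1, 2 and 3 Ccl3 was at 90.1 CPM (74.8 to 108), 55.7 (52.8 to 58.8) and 856 (843 to 869). Ccl4 was at 136 CPM (117 to 157), 94.2 (90.4 to 98.2) and 785 (773 to 798). Both were lowest in library 2 in CPM, and library 3 stood far above the other libraries. Between libraries 3 and 2 the ratio was 15.4 for Ccl3 (14.5 to 16.3) and 8.33 for Ccl4 (7.98 to 8.71). By the ratio with 1 CPM added, the genes ranked 10 and 19 of 8130. Between libraries 3 and 1 the ratio of CPM was 9.50 (7.94 to 11.5) and 5.80 (5.01 to 6.75). The order of libraries 1 and 2 rested on few cells. Without the 1% of cells with most UMIs of the gene, the log2 ratio of library 2 to library 1 went from -0.68 to 0.36 for Ccl3 and from -0.52 to 1.28 for Ccl4, and the number of members higher in library 2 went from 3 to 4. In that setting the log2 ratio of library 3 to library 1 went from 3.23 to 4.75 for Ccl3 and from 2.53 to 4.93 for Ccl4, and that of library 3 to library 2 from 3.05 to 3.65 for Ccl4. Since Ccl3 and Ccl4 were in 41 and 32 cells of library 1, these rises are not read as larger differences either.

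Ccl6 and Ccl9 differed by less than 2-fold between libraries. In the same order of libraries, Ccl6 was at 291 CPM (263 to 321), 248 (242 to 255) and 195 (189 to 202). Ccl9 was at 415 CPM (382 to 451), 274 (267 to 280) and 226 (219 to 233). Both were highest in library 1 and lowest in library 3, outside their counting intervals, yet the ratio of library 3 to library 1 was 0.671 for Ccl6 (0.604 to 0.746) and 0.544 for Ccl9 (0.498 to 0.595), short of 2-fold.

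A cell with more UMIs shows more genes, so each cell was thinned at random to 2000 UMIs, and the share of cells with at least 1 UMI of each gene was taken. Thinning kept 408, 3569 and 3284 cells and left out 201, 22 and 38 shallower ones. For libraries 1, 2 and 3 in turn, Ccl12 was found in 23.8% of cells (exact Clopper-Pearson interval 19.7 to 28.2), 78.6% (77.2 to 79.96) and 98.5% (98.0 to 98.9). Ccl2 was found in 1.23% (0.399 to 2.84), 9.97% (9.01 to 11.01) and 41.6% (39.9 to 43.3). Ccl7 was found in 0 of 408 cells, which allows a share of up to 0.735% by the limit of 3 counts (the upper Clopper-Pearson bound is 0.900%), then in 1.43% (1.07 to 1.87) and 6.76% (5.93 to 7.67). Each of the 3 Ccr2 ligands was in the same order by share as by CPM.

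By library in the same order, Ccl3 was found in 6.62% of thinned cells (4.41 to 9.48), 7.96% (7.09 to 8.89) and 67.5% (65.9 to 69.1). Ccl4 was found in 5.39% (3.41 to 8.05), 10.96% (9.95 to 12.03) and 64.4% (62.8 to 66.1). Libraries 1 and 2 overlapped for Ccl3, and for Ccl4 the share was lower in library 1 although the CPM was higher, so no order of these libraries was read for either gene. Ccl6 was found in 39.5% (34.7 to 44.4), 39.3% (37.7 to 40.9) and 32.4% (30.8 to 34.1), where libraries 1 and 2 overlapped. Ccl9 was found in 49.0% (44.1 to 54.0), 42.0% (40.4 to 43.6) and 35.0% (33.3 to 36.6). Without thinning the shares in libraries 1, 2 and 3 were 1.81%, 27.7% and 69.2% for Ccl2, 6.73%, 22.4% and 91.9% for Ccl3, 5.25%, 31.1% and 90.7% for Ccl4, and 24.3%, 96.7% and 99.94% for Ccl12. For Ccl6 they were 39.4%, 77.0% and 63.8%, for Ccl7 0.164%, 5.29% and 17.5%, and for Ccl9 46.8%, 78.6% and 68.5%. Ccl9 was thus highest in library 1 at equal depth and highest in library 2 without it.

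**Figure D2:**
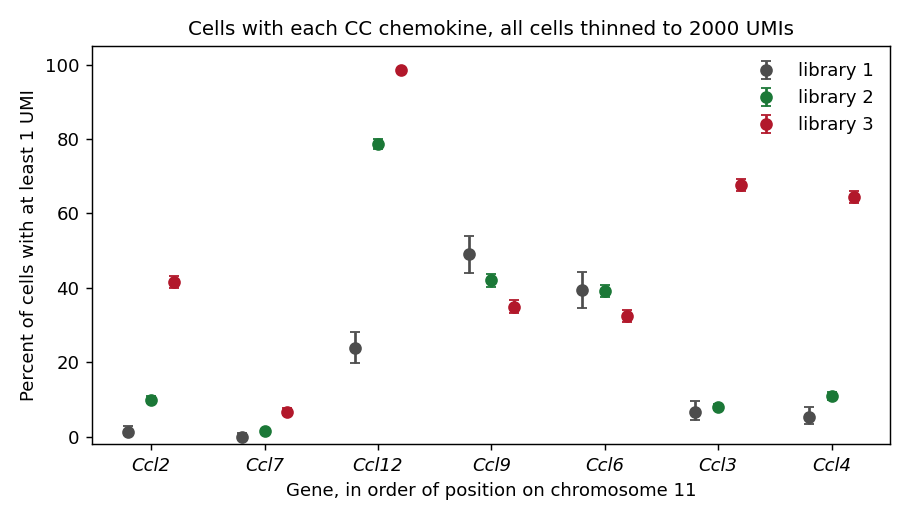
Percent of cells with at least 1 UMI of each CC chemokine after thinning every cell to 2000 UMIs, in library 1 (408 cells), library 2 (3569) and library 3 (3284); bars are exact 95% Clopper-Pearson intervals. Ccl3 and Ccl4 were in under 12% of cells in libraries 1 and 2 and in over 64% in library 3, and Ccl12 was in 98.5% of cells there.

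The members also differed in how they were spread across the cells of a library. The ratio of variance to mean of the UMIs per thinned cell is 1 for a gene at the same level in every cell, apart from sampling. Where levels differ between cells, this ratio can also grow with the mean. A higher ratio at a higher mean is thus not read as a more uneven spread. For Ccl4 the ratio was 22.3 in library 1, 8.22 in library 2 and 4.44 in library 3. These values ranked 2 of 5525, 1 of 5302 and 2 of 5217 genes with at least 0.05 UMIs per cell. For Ccl3 it was 12.1, 3.87 and 2.81, and for Ccl12 20.2, 2.65 and 4.31, at Ccl12 means of 0.615, 1.91 and 6.23 UMIs. All 3 genes ranked within the first 7 genes of each library. Ccl2 was at 0.988 in library 1 on 5 UMIs, and at 2.15 and 2.71 in libraries 2 and 3. Ccl7 was at 1.76 and 2.02 in libraries 2 and 3. Ccl6, at 1.72, 1.08 and 1.06, and Ccl9, at 1.81, 1.08 and 1.11, were near 1 in libraries 2 and 3. With another random draw Ccl4 was at 27.0, 7.29 and 3.94, so the value in library 1 is coarse.

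**Figure D3:**
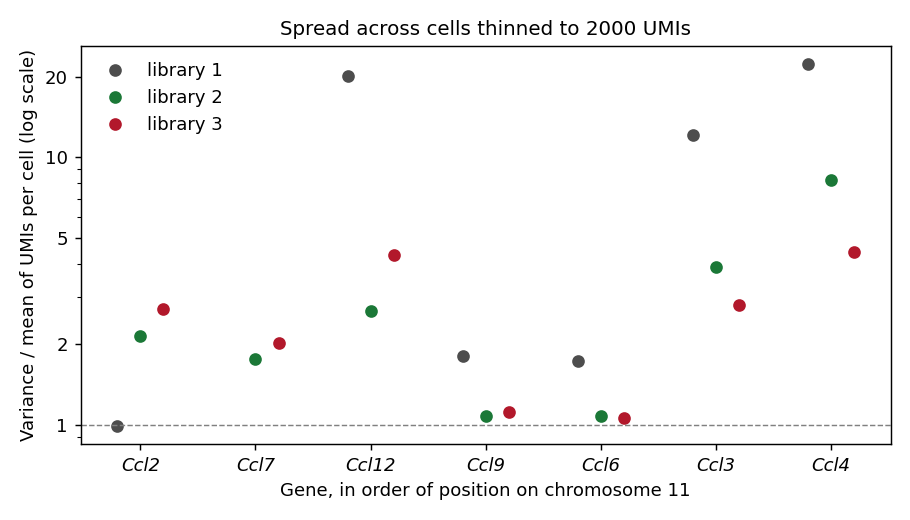
Ratio of variance to mean of UMIs per cell thinned to 2000 UMIs (log scale) for each CC chemokine in library 1, 2 and 3; the dashed line at 1 is the value of a gene at equal level in all cells. Ccl4 was at 22.3, 8.22 and 4.44, while Ccl6 and Ccl9 were near the line in libraries 2 and 3. Ccl7 has no point in library 1, where no thinned cell held it.

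In library 1 few cells carried most transcripts of 3 genes. The 2 cells with most Ccl3 held 51.2% of its 82 thinned UMIs, 6 cells with at least 5 UMIs held 81.0% of the 121 Ccl4 UMIs, and 5 cells held 50.2% of the 251 Ccl12 UMIs. The highest values in a thinned cell were 25 UMIs of Ccl3, 43 of Ccl4 and 61 of Ccl12, while 93.4%, 94.6% and 76.2% of cells had 0. In library 2, 14 cells (0.392%) with at least 5 UMIs held 34.6% of the Ccl4 UMIs. In library 3 such cells were 218 (6.64%) and held 37.8%. Near that threshold, the numbers of cells with 4 Ccl4 UMIs were 2, 2 and 99 in libraries 1, 2 and 3, and those with 5 were 1, 3 and 66. In library 3 the high cells are thus the upper end of a range, with up to 46 UMIs. In libraries 1 and 2 the high cells are few, with up to 43 and 38 UMIs.

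In libraries 2 and 3 Ccl12 was found in most cells. Its median was 0, 1 and 5 UMIs per thinned cell in libraries 1, 2 and 3, and the 5th and 95th percentiles were 0 and 2, 0 and 5, and 1 and 16. In library 3, 1.49% of cells had 0 Ccl12 UMIs, where a Poisson distribution of the same mean would give 0.196%. In library 2 the values were 21.4% and 14.7%. For Ccl2 in library 3, 58.4% of cells were at 0 against 43.3%, and for Ccl3 32.5% against 19.5%. For Ccl9, with 65.0% against 63.7% in library 3, and Ccl6, with 67.6% against 66.8%, the shares at 0 lay close to the Poisson values.

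**Figure D4:**
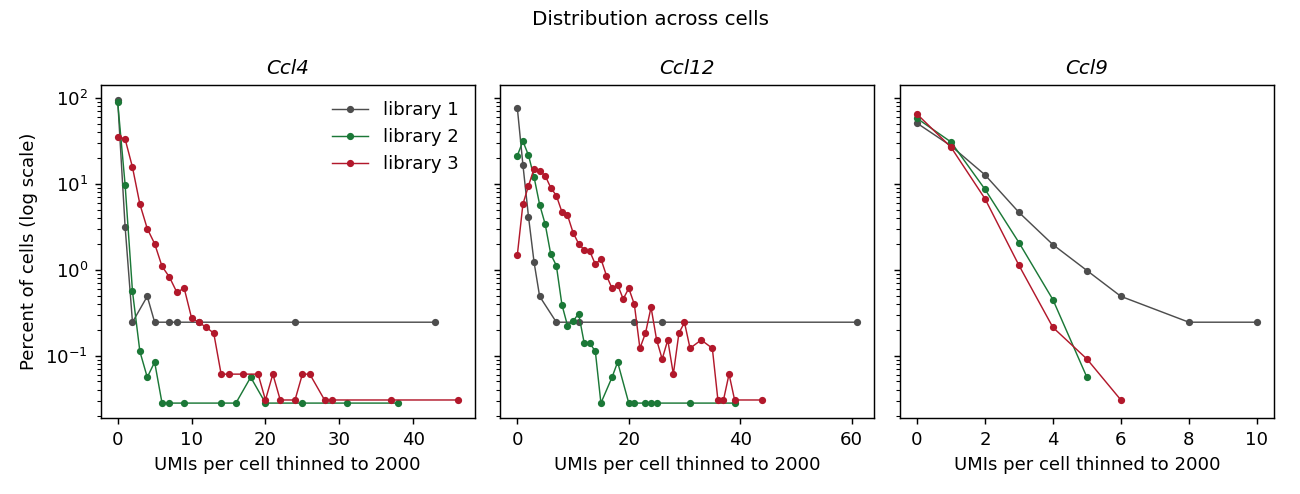
Percent of cells (log scale) at each number of UMIs per cell thinned to 2000 UMIs, for Ccl4, Ccl12 and Ccl9 in library 1, 2 and 3; numbers held by no cell have no point. Ccl12 in library 3 has its centre at a median of 5 UMIs, Ccl4 has most cells at 0 or 1 and a long tail in every library, and Ccl9 ends at 10 UMIs or fewer.

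Of the 21 pairs of members, 3 had a Pearson r of ln(1 + UMIs) of at least 0.1 across thinned cells in both library 2 and library 3, namely Ccl3 and Ccl4, Ccl2 and Ccl3, and Ccl2 and Ccl7. These are descriptions over 3569 and 3284 cells that share a library. By Spearman rho 0 pairs reached 0.1 in both libraries, and at 1000 UMIs per cell 1 pair did, Ccl3 and Ccl4. In library 2 rho was 0.03 for Ccl2 and Ccl3 and 0.03 for Ccl2 and Ccl7, and in library 3 it was 0.10 and 0.09. For Ccl2 and Ccl12 rho was 0.07 in library 2 and 0.18 in library 3, and for Ccl3 and Ccl4 it was 0.21 in library 3. For Ccl3 and Ccl4, r was 0.26 in library 2 and 0.30 in library 3. In library 3 both were found in 1474 cells, where the product of the shares gives 1429. In library 2 both were found in 41 cells, where 31.1 were expected, and the Spearman rho was 0.04. In library 1, r was 0.78 over 408 cells, of which 10 held both genes. For Ccl2 and Ccl7, r was 0.11 and 0.14, with both found in 8 cells of library 2 (5.09 expected) and 120 of library 3 (92.3 expected). For Ccl2 and Ccl12, r was 0.09 and 0.19, and for Ccl2 and Ccl3 0.13 in both libraries. The neighbours Ccl6 and Ccl9 had an r of -0.03 and 0.02, and both were found in 559 cells of library 2 (588.9 expected) and 380 of library 3 (372 expected). These values are small, and most cells hold few UMIs of each gene, except for Ccl12 in library 3 with a median of 5.

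**Figure D5:**
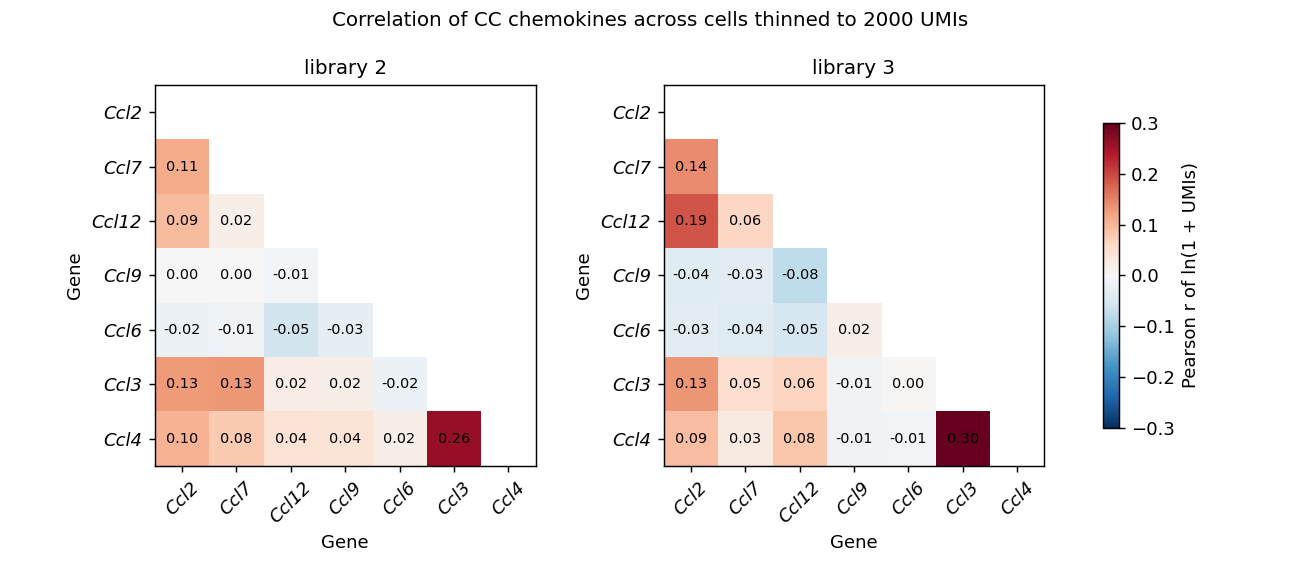
Pearson r of ln(1 + UMIs) for each pair of CC chemokines across cells thinned to 2000 UMIs, in library 2 (3569 cells) and library 3 (3284 cells), genes in order of position on chromosome 11. The pair Ccl3 and Ccl4 has the highest value in both libraries, 0.26 and 0.30, and pairs with Ccl6 or Ccl9 lie between -0.08 and 0.04.

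The cells with at least 5 Ccl4 UMIs carried other members as well. Ccl3 was found in 71.4% of the 14 such cells of library 2, against 7.71% of the other cells, and Ccl2 in 42.9% against 9.85%. In library 3 Ccl3 was found in 90.4% of the 218 cells against 65.9%, and Ccl2 in 54.1% against 40.7%. Ccl6 was found in 35.7% of these cells against 39.3% in library 2, and in 30.7% against 32.6% in library 3. Id2, an inhibitor of helix-loop-helix factors, is named as the gene with the highest r with Ccl4 in library 2. It was found in 10 of the 14 cells of library 2 (71.4%) against 9.59% of the others. These values are not independent of that choice. In library 3 Id2 was found in 33.9% against 23.0%. Tnf, a cytokine chosen after its values were seen, was found in 7 of the 14 cells of library 2 against 6.58%. For those 14 cells the interval was 23.0% to 77.0%. Tnf was found in 0 of the 6 high cells of library 1 against 2.74%, and in library 3 in 33.9% against 24.4%. Il1a, another cytokine looked at in these cells, did not follow Tnf. It was found in 3 of the 6 high cells of library 1 against 20.6%. In library 2 the shares were 21.4% against 18.5%, and in library 3 31.2% against 35.3%. P2ry12, a receptor of homeostatic microglia also chosen after its values were seen, had means of 2.50 UMIs in the 6 high cells of library 1 against 8.11, of 2.79 against 4.80 in library 2, and of 4.56 against 5.25 in library 3. The median depth of the high cells before thinning was 3275.5, 7945 and 6330 UMIs, against 2486, 5959 and 5721 in the others, and its part in these differences was not tested.

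Outside the 7 members, the genes most like a member across cells that reached an r of 0.1 had 0.11 to 0.14. In library 2 these were Id2 for Ccl4 (0.11) and Ly86 for Ccl12 (0.13), among 5296 genes. In library 3, among 5210 genes, the 3 genes most like Ccl3 were Btg2, H3f3b and Jun (0.13, 0.13 and 0.12), those most like Ccl4 were Junb, H3f3b and Sgk1 (0.11 each), and those most like Ccl2 were H3f3b, Ier2 and Hspa5 (0.11 each). For Ccl12 they were the chaperones Hsp90ab1 (0.14) and Hspa5 (0.13) and the metalloprotease Adamts1 (0.11). The lowest r of Ccl12 in library 3 was with P2ry12, at -0.22. The 1777 cells of library 3 with at least 5 Ccl12 UMIs had a mean of 4.77 P2ry12 UMIs, against 5.71 in the other 1507. No gene reached 0.1 with Ccl6, Ccl7 or Ccl9 in library 2 or 3. The same held for Ccl2 and Ccl3 in library 2, where the highest r was 0.07 and 0.06.

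Immediate early genes, which are induced within minutes of a stimulus and include AP-1 factors, were far higher in library 3. Their 21 genes summed to means of 6.04, 7.15 and 61.3 UMIs per thinned cell in libraries 1, 2 and 3. In library 3, 19 of 19 tested were higher than in library 2, against 1.32% of all tested genes. Their part in the chemokine levels of library 3 was not tested. Within library 3, cells in the highest 25% by these genes (866 cells) had a mean of 0.980 Ccl2 UMIs, against 0.509 in the lowest 25% (837 cells). Ccl3 was at 1.87 against 0.994 and Ccl4 at 1.74 against 1.04. The share of cells was 44.1% (40.8 to 47.5) against 34.8% (31.5 to 38.1) for Ccl2 and 68.8% (65.6 to 71.9) against 59.7% (56.3 to 63.1) for Ccl3, without overlap, and 65.7% against 62.2% for Ccl4, with overlap. Ccl12 was at 5.68 against 6.24 UMIs. In library 2 no member had intervals apart between the highest (1032 cells) and lowest (1232 cells) groups, which ties made larger than 25%. Ccl12 was at 1.77 against 1.95 UMIs. The quartiles of the summed genes were 5 and 9 UMIs there, against 41 and 78 in library 3. The split thus separates cells less in library 2, and the libraries are not compared in this.

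In libraries 2 and 3, cells that were deeper before thinning held more Ccl12 and Ccl2 at equal depth. In library 3 the deepest 25% of cells had means of 8.10 Ccl12, 1.11 Ccl2, 1.95 Ccl3 and 1.78 Ccl4 UMIs, against 4.88, 0.569, 1.26 and 1.20 in the shallowest 25%. Ccl9 went the other way, at 0.368 against 0.476 UMIs. In library 2 Ccl12 was at 2.46 against 1.51 and Ccl2 at 0.211 against 0.0806. Of 10 proliferation genes, 10 were higher in library 2 than in library 1, against 4.55% of all tested genes. In library 3, 10 of these genes were lower than in library 2, against 1.92% of all tested genes. Cells with at least 2 UMIs of the proliferation genes numbered 2 and 8 in libraries 1 and 3, too few to compare. In 1000 cells of library 2 with at least 2 UMIs of these genes, Ccl2 was found in 11.5% (9.59 to 13.6), against 8.64% (7.16 to 10.3) of 1297 cells with 0, and Ccl12 in 80.9% (78.3 to 83.3) against 78.2% (75.8 to 80.4), with overlapping intervals. Cells split by interferon genes had overlapping shares of each member in every library. These genes summed to means of 1.57, 1.63 and 0.936 UMIs per thinned cell in libraries 1, 2 and 3. In library 3 the split set 1401 cells with 0 UMIs against 1883 cells with at least 1. With so few UMIs the split could not separate an interferon state, so nothing is read from the overlap.

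Receptors were described beside the ligands. Ccr1, the receptor of Ccl3, Ccl6 and Ccl9, was at 27.5, 11.5 and 32.4 CPM in libraries 1, 2 and 3, and Ccrl2, an atypical receptor of chemerin, at 29.0, 11.4 and 49.4 CPM. Ccr1 and Ccrl2 were lower in library 2 than in library 1 and higher in library 3 than in library 2, past 2-fold. Between libraries 3 and 2 the ratio was 2.83 for Ccr1 (2.45 to 3.27) and 4.34 for Ccrl2 (3.79 to 4.98). Ccr2, the receptor of Ccl2, Ccl7 and Ccl12, had 3, 12 and 14 UMIs in the whole of libraries 1, 2 and 3, so it was nearly undetected at this depth in the cells that held its ligands.

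Of 14 other CC ligands, 2 passed the filter. Ccl5, a T cell attractant, was at 13.4, 28.3 and 7.39 CPM, higher in library 2 than in library 1 and lower in library 3 than in library 2. Its ratio of library 2 to library 1 was 2.11 on 18 UMIs in library 1. The interval, 1.33 to 3.58, reached below 2-fold. Ccl25 was at 21.6, 22.9 and 13.5 CPM and passed 2-fold in no comparison, and Ccl27a was at 5.96, 4.19 and 2.93 CPM. Of 15 CXC, CX3C and XC ligands, Cxcl16 alone passed the filter, at 70.7, 102 and 89.9 CPM, past 2-fold in no comparison. Below the filter, Cxcl10, an interferon-induced chemokine, was at 2.98, 12.8 and 10.3 CPM and Cxcl14 at 1.49, 1.74 and 0.759 CPM. Of 16 tested NF-kB inducible genes and cytokines, 2 were higher and 2 lower in library 2 than in library 1, 7 were higher and 1 lower in library 3 than in library 1, and 7 were higher and 0 lower in library 3 than in library 2. Over all tested genes the shares higher and lower were 4.55% and 3.7%, 3.62% and 5.01%, and 1.32% and 1.92% in these comparisons. Of the 3 most abundant, Nfkbia, an inhibitor of NF-kB, was at 206, 191 and 517 CPM, Cd83 at 199, 147 and 149 CPM and Icam1 at 142, 140 and 204 CPM. The median log2 ratio of this list between libraries 3 and 2 was 0.76, beside 2.17 for the 7 chemokines and -0.02 for all tested genes. The value of 2.17 is that of Ccl7, which passed the filter through library 3.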

How the data were processed

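Lumbar cord YFP (+) cells of 3 samples were sequenced by droplet-based 3′ scRNA-Seq (reagent kit v3.1 per the labels, v3 per the methods). The authors deposited raw UMI counts, not normalized, in 1 matrix of genes by cells. The submitters' processing notes name Cell Ranger 2.1.1 and mm10. Whether reads were down-sampled on joining the libraries is not given in the sources used here. Barcode suffixes could not be mapped to time points, and 0 other columns of samples were set aside.

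Counts were summed per library and scaled to CPM (pseudocount 1, filter of a mean of 10 CPM, call past 2-fold), or cells were thinned to 2000 UMIs by drawing without replacement (seed 1). Intervals are exact Poisson, conditional binomial for ratios, or Clopper-Pearson, at 95%, and a count of 0 was given a limit of 3 counts. Intervals cover counting error only. No doublet caller was run. Per the methods the sort excluded doublets, which does not remove those formed in droplets, and the 1% deepest cells were left out as an alternative. Steps were tested on simulated data. The members and gene lists were chosen with earlier results of these data known. Genes named beside the members were the 3 most correlated genes with r of at least 0.1 in libraries with at least 1000 thinned cells, and the 3 genes of highest mean CPM of each list of chemokine, receptor and NF-kB genes, of which 1 is not reported here. Alternatives were cell filters (200 genes, 500 UMIs, 10% mitochondrial UMIs), equal weight of cells, pseudocount 5, TMM factors (edgeR 4.0.16, R 4.3.3), other totals, thinning to 1000 or 4000 UMIs, seed 2 and Spearman rho. Python 3.11.15, numpy 2.4.6, scipy 1.17.1, pandas 2.3.3 and matplotlib 3.10.9 were used.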

Additional observations from a re-analysis of the deposited data

How the results depend on the processing

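The numbers of members past 2-fold were the same under every alternative for library 3 against library 1 (5) and against library 2 (5), and for library 2 against library 1 (3) except without the 1% of cells with most UMIs of the gene (4). The library with the highest share of cells was the same for 7 of 7 members under each thinning depth, seed, filter and threshold, though thinning to 4000 UMIs kept 9 cells of library 1. Gene and library values with a variance of at least 2 times the mean numbered 12, and 9 with thinning to 1000 UMIs. The number of pairs with a correlation of at least 0.1 in libraries 2 and 3 was 3, 0 with Spearman rho and 1 with thinning to 1000 UMIs, where cells hold fewer UMIs. Of 294 values of single members under an alternative, 203 stayed within their counting error, 91 moved and 0 called values changed sign. Sign was looked at for called ratios only. The uncalled ratios of Ccl3 and Ccl4 between libraries 2 and 1 changed sign without the 1% of cells with most UMIs of the gene. Both are counted as moved. Shares of cells are among the 294 values and cannot change sign. They shift by definition with another thinning depth or threshold, and the cell filter left the thinned cells unchanged. No paired analysis was possible because each group has 1 library and no value comes from a test. In the 408 thinned cells of library 1, Ccl2 and Ccl7 had 5 and 0 UMIs, so their values there are coarse.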
